A study of Danio rerio with 12 samples.

Results

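The zebrafish genes of the apelin receptor system measured here were the receptor genes aplnra (ENSDARG00000002172) and aplnrb (ENSDARG00000036670) and the ligand genes apela (ENSDARG00000094729), which encodes the peptide Toddler, and apln (ENSDARG00000053279), which encodes Apelin. The members were the rows of the count table whose Ensembl identifier carried one of these 4 symbols in the zebrafish gene name table, and each symbol matched 1 of the 32520 genes. The RNA came from whole embryos of the TU strain, harvested at the tailbud stage, 10 hours post fertilisation (hpf). There were 12 libraries in 4 groups of 3, namely tif1g morpholino with leflunomide, tif1g morpholino with DMSO, control morpholino with leflunomide and control morpholino with DMSO. Every embryo had received 1 ng of morpholino, an antisense oligomer, at the 1 to 2 cell stage. The tif1g morpholino is of the kind that covers the start codon and blocks translation, and the control was a standard oligomer. Injected embryos of a clutch were then divided between 7 µM leflunomide and the same amount of DMSO, from 5.3 hpf to harvest. Leflunomide inhibits the pyrimidine synthesis enzyme dihydroorotate dehydrogenase, DMSO is its solvent, and tif1g is the gene trim33. Each library was made from 109 pooled embryos, so it averages over embryos and over all tissues. In such bulk RNA, fewer cells that express a gene and less RNA of that gene per cell cannot be told apart.

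The apelin receptors are G protein-coupled receptors that signal mainly through inhibitory G proteins. In the zebrafish gastrula, Toddler is the ligand that these receptors need for the inward and animalward movement of mesoderm and endoderm cells, and embryos without Toddler or without both receptors form little or no heart. Aplnrb is the receptor altered in the zebrafish grinch mutant, which lacks heart precursors. Apelin is expressed later and more narrowly, first in the midline mesoderm, and is known for its part in heart precursor movement and in vessel growth. Nodal signalling, which specifies mesoderm and endoderm, lies upstream of these movements. The comparisons asked how RNA of the receptor and ligand genes differed after the tif1g morpholino and after leflunomide, and whether the morpholino altered the difference that leflunomide made.

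The table held 27574593 to 32088082 counts per library, and 21400 genes with enough counts were tested, all 4 apelin genes among them. Levels are given as CPM, counts per 1000000 after scaling of the libraries with TMM factors (trimmed mean of M values). Levels of different genes are not set against each other, because CPM does not account for transcript length. A difference counts as called, and only then as a rise or a fall, where its adjusted p was below 0.05. RNA of the targeted gene, trim33 (ENSDARG00000016181), was higher in libraries labelled tif1g morpholino. It stood at 417.0 to 432.6 CPM with leflunomide and 372.9 to 394.6 CPM with DMSO in those libraries, against 78.6 to 85.6 and 71.2 to 80.6 CPM in libraries labelled control morpholino. A morpholino that blocks translation need not lower the RNA of its target, and the protein was not measured here, so these values part the labelled groups but do not check the loss of the gene product. Directions below refer to the morpholino on the label.

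The receptor gene aplnrb was higher with the tif1g morpholino, and in control embryos it was lower with leflunomide. The tif1g leflunomide libraries held 46.5, 53.2 and 52.8 CPM of aplnrb in replicates 1, 2 and 3. The tif1g DMSO libraries held 56.5, 69.8 and 62.7 CPM. In control embryos aplnrb stood at 26.2, 24.6 and 29.0 CPM with leflunomide, against 40.7, 39.3 and 32.0 CPM with DMSO. The lowest tif1g library therefore lay above the highest control library, and no group overlapped its neighbour in the order tif1g DMSO, tif1g leflunomide, control DMSO, control leflunomide. The share of all genes whose groups part in such a way was not counted, here or for the other members. Group means were 50.8 ± 3.78 CPM in tif1g leflunomide, 63.0 ± 6.65 CPM in tif1g DMSO, 26.6 ± 2.23 CPM in control leflunomide and 37.4 ± 4.69 CPM in control DMSO (SD, n = 3 each).

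**Figure D1:**
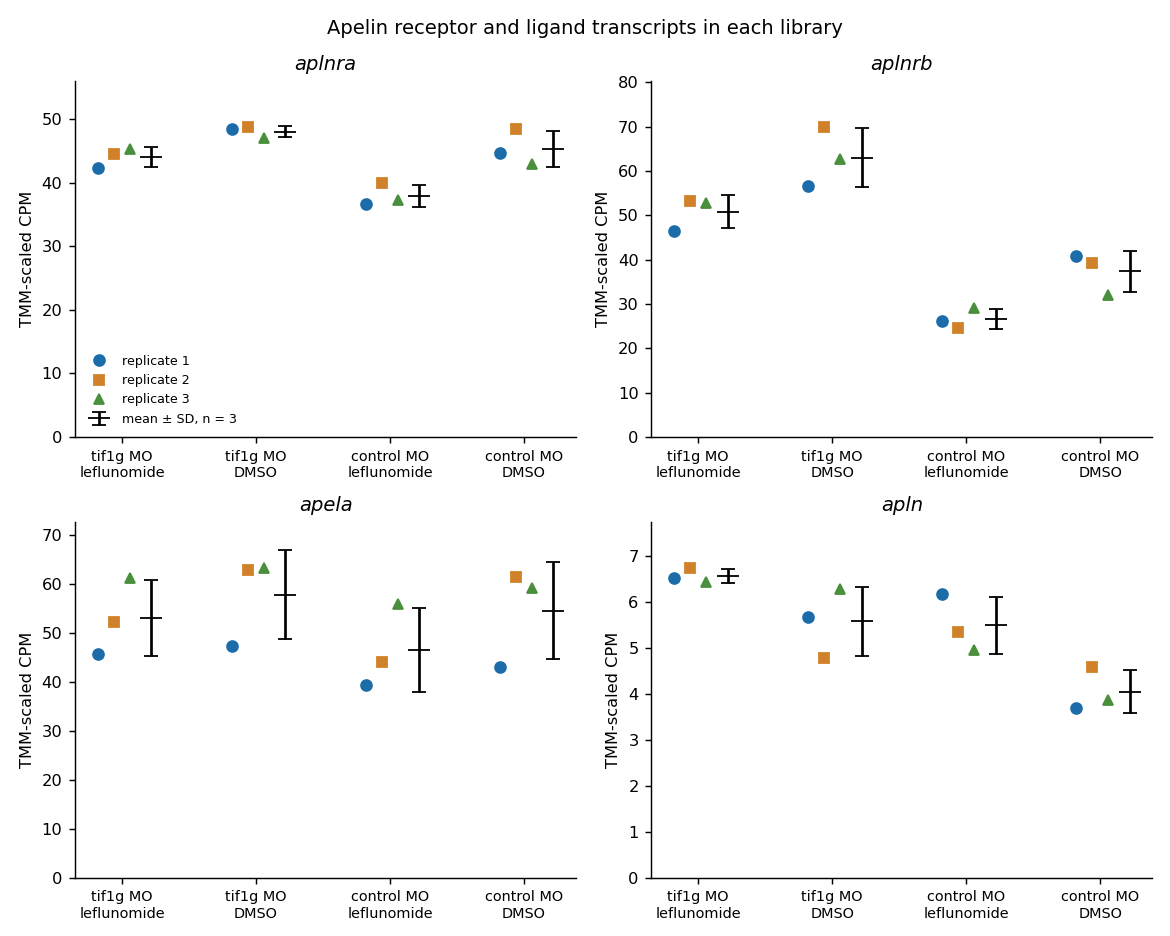
TMM-scaled CPM of aplnra, aplnrb, apela and apln in each of the 12 libraries. Each point is 1 library, and the bars are the group mean and SD (n = 3). The lowest tif1g library for aplnrb, 46.5 CPM, lies above the highest control library, 40.7 CPM, while all apela groups overlap.

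In DMSO, aplnrb was 1.69-fold higher with the tif1g morpholino than with the control morpholino, a log2 change of 0.75 ± 0.10 (SE, adjusted p = 1.64e-05, edgeR's quasi-likelihood test; all adjusted p-values used Benjamini-Hochberg correction across all 21400 genes). This comparison called 32.8% of all genes tested and 15.6% as higher. In leflunomide the same comparison gave a 1.91-fold higher level, log2 0.93 ± 0.10 (adjusted p = 2.93e-06, edgeR's quasi-likelihood test), where 23.8% of all genes were called and 12% were called higher. Each replicate number differed in the same direction, by log2 0.47, 0.83 and 0.97 in DMSO and by 0.83, 1.11 and 0.86 in leflunomide. Both calls held under each of the 21 other settings tried.

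With leflunomide in control embryos, aplnrb fell to a 0.712-fold level, log2 -0.49 ± 0.10 (adjusted p = 0.00198, edgeR's quasi-likelihood test), in a comparison that called 21.9% of all genes tested and 13.1% as lower, with 8.87% as higher. The same drug in tif1g embryos gave log2 -0.31 ± 0.10 with a 95% interval of -0.50 to -0.12, which did not pass (adjusted p = 0.145, edgeR's quasi-likelihood test). That comparison called 0.617% of all genes. In tif1g embryos the differences in replicates 1, 2 and 3 were log2 -0.28, -0.39 and -0.25. In a fit with the replicate number as a block, the adjusted p there was 0.0507 (edgeR's quasi-likelihood test), where 7.09% of all genes were called. Replicate 3 of the control embryos showed the smallest difference between leflunomide and DMSO, at log2 -0.14, against -0.64 and -0.68 in replicates 1 and 2. Without replicate 2 in all 4 groups the call in control embryos was lost (log2 -0.40, adjusted p = 0.059, edgeR's quasi-likelihood test).

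The paralogous receptor gene aplnra had smaller log2 changes in each comparison, a contrast between the genes that was not tested. It stood at 42.3, 44.6 and 45.4 CPM in the tif1g leflunomide libraries and at 48.5, 48.7 and 47.0 CPM in the tif1g DMSO libraries. Control embryos held 36.6, 39.9 and 37.3 CPM with leflunomide, against 44.6, 48.4 and 42.9 CPM with DMSO. The 3 control leflunomide libraries were the lowest of the 12, and the other groups overlapped their neighbours in the order of levels. Means were 44.1 ± 1.61 CPM in tif1g leflunomide, 48.1 ± 0.935 CPM in tif1g DMSO, 38.0 ± 1.76 CPM in control leflunomide and 45.3 ± 2.82 CPM in control DMSO (SD, n = 3 each).

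With the tif1g morpholino, aplnra differed by log2 0.08 ± 0.06 in DMSO (95% interval -0.04 to 0.21, adjusted p = 0.342, edgeR's quasi-likelihood test). In leflunomide it was 1.16-fold higher, log2 0.22 ± 0.07 (adjusted p = 0.0209, edgeR's quasi-likelihood test). That call was lost without replicate 1 or 3 of control leflunomide and without replicate 2 or 3 of tif1g leflunomide, where the adjusted p ran from 0.0634 to 0.0862 (edgeR's quasi-likelihood test). Leflunomide lowered aplnra in control embryos to 0.837-fold, log2 -0.26 ± 0.06 (adjusted p = 0.00823, edgeR's quasi-likelihood test). When libraries were scaled by their totals alone, the median of all genes in that comparison was 0.16 on the log2 scale, in place of 0.02 with TMM, and aplnra was no longer called (log2 -0.12, adjusted p = 0.21, edgeR's quasi-likelihood test). Relative to the median gene, aplnra stood at log2 -0.28 under both scalings and aplnrb at -0.51. A change of scaling shifts all genes of a comparison by nearly the same amount. This match is therefore given by arithmetic and is no check of the call. In tif1g embryos leflunomide gave log2 -0.12 for aplnra (adjusted p = 0.407, edgeR's quasi-likelihood test).

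The sources used here do not say how reads that match both receptor genes were counted, so the receptors were also tested as the sum of their counts. Reads counted for neither gene would be missing from the sum too, so it cannot settle how such reads bear on the values. The sum was higher with the tif1g morpholino by log2 0.56 ± 0.07 in leflunomide (adjusted p = 6.63e-06, edgeR's quasi-likelihood test) and by 0.43 ± 0.07 in DMSO (adjusted p = 7.38e-05, edgeR's quasi-likelihood test). Leflunomide in control embryos lowered the sum, with log2 -0.36 ± 0.07 (adjusted p = 0.000868, edgeR's quasi-likelihood test). In tif1g embryos the drug gave log2 -0.23 ± 0.07 for the sum, with a 95% interval of -0.36 to -0.10. That difference was not called (adjusted p = 0.12, edgeR's quasi-likelihood test).

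The share of aplnrb in the receptor counts was higher in every tif1g library than in any control library. Of the counts on both receptor genes, aplnrb held 52.4, 54.4 and 53.8% in tif1g leflunomide and 53.8, 58.9 and 57.2% in tif1g DMSO. Its share was 41.7, 38.1 and 43.8% in control leflunomide and 47.7, 44.8 and 42.7% in control DMSO. All 6 tif1g libraries lay above 50% and all 6 control libraries below it, while leflunomide and DMSO overlapped within control embryos and within tif1g embryos. These are shares of counts, not of molecules, since the lengths of the transcripts were not used. The 95% Wilson intervals reached 1.65 to 2.24 percentage points to either side and cover counting error only. A share of this kind needs no scaling between libraries and was not tested. It is made from the same counts as the tests of the receptor genes, so it is not a separate result. How often other pairs of genes part the groups in this way was not counted.

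**Figure D2:**
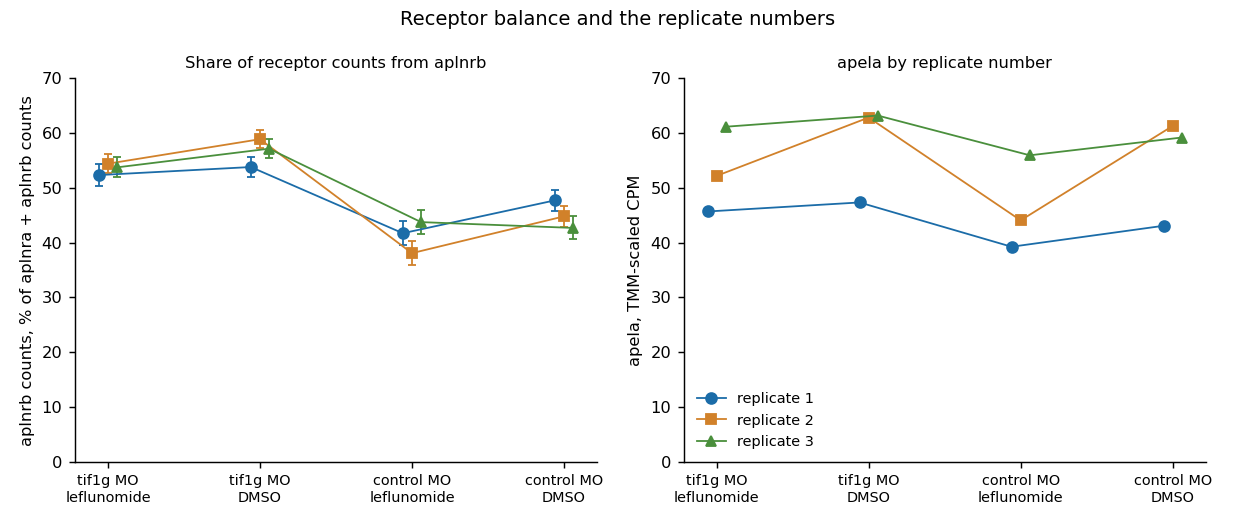
Share of aplnrb in the counts of both receptor genes, in percent, and level of apela in CPM, by library. Tif1g libraries held 52.4 to 58.9% aplnrb and control libraries 38.1 to 47.7%, and for apela replicate 1 was the lowest library of each group.

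The ligand gene apela, for Toddler, differed more between replicate numbers than between groups. Its levels in replicates 1, 2 and 3 were 45.7, 52.2 and 61.2 CPM in tif1g leflunomide and 47.4, 62.9 and 63.2 CPM in tif1g DMSO. Control embryos held 39.3, 44.1 and 56.0 CPM with leflunomide, against 43.1, 61.3 and 59.2 CPM with DMSO. All 4 groups overlapped, and replicate 1 was the lowest library in each. Over the 4 groups, apela averaged 43.9 CPM in the libraries numbered 1, 55.1 CPM in those numbered 2 and 59.9 CPM in those numbered 3. Means were 53.0 ± 7.77 CPM in tif1g leflunomide, 57.8 ± 9.06 CPM in tif1g DMSO, 46.4 ± 8.60 CPM in control leflunomide and 54.5 ± 9.97 CPM in control DMSO (SD, n = 3 each).

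In a fit with the replicate number as a term, apela was log2 0.32 higher in replicate 2 and 0.45 higher in replicate 3 than in replicate 1 (adjusted p = 6.02e-07, edgeR's quasi-likelihood test on the replicate terms). This test was chosen after the levels had been seen, and 14.3% of all genes passed it. The other members did not pass it, with adjusted p-values of 0.465 for aplnra, 0.687 for aplnrb and 0.979 for apln (edgeR's quasi-likelihood test). The sources used here do not say whether libraries of 1 number share a clutch, a day or an extraction.

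Without the replicate term, no comparison called apela. The tif1g morpholino gave log2 0.08 ± 0.19 in DMSO (95% interval -0.28 to 0.45, adjusted p = 0.778, edgeR's quasi-likelihood test) and 0.19 ± 0.19 in leflunomide (adjusted p = 0.523, edgeR's quasi-likelihood test). Leflunomide in control embryos gave log2 -0.23 ± 0.19 (adjusted p = 0.447, edgeR's quasi-likelihood test). Once the replicate number was a block, the SE was 0.06 and the estimates stood at 0.20 ± 0.06 for the morpholino in leflunomide (adjusted p = 0.0173, edgeR's quasi-likelihood test) and -0.23 ± 0.06 for leflunomide in control embryos (adjusted p = 0.00519, edgeR's quasi-likelihood test), so both were called. The blocked fit called 33.7% and 31.4% of all genes in these comparisons, and 17.8% as lower in the second. Each replicate number showed the same sign, with differences of 0.22, 0.24 and 0.13 for the morpholino in leflunomide and of -0.13, -0.48 and -0.08 for leflunomide in control embryos. Per count on the receptors, apela had 0.557 ± 0.058 counts in tif1g leflunomide, 0.519 ± 0.063 in tif1g DMSO, 0.717 ± 0.114 in control leflunomide and 0.665 ± 0.146 in control DMSO (SD, n = 3 each), with control DMSO spanning 0.505 to 0.790.

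The ligand gene apln, for Apelin, was sparsely covered, with 110 to 207 counts per library and a counting error of 6.95 to 9.53%, against 2.23 to 3.64% for the other members. Its level was 6.53, 6.74 and 6.44 CPM in tif1g leflunomide and 5.67, 4.79 and 6.28 CPM in tif1g DMSO. In control embryos it was 6.18, 5.34 and 4.95 CPM with leflunomide, against 3.70, 4.58 and 3.87 CPM with DMSO. The control DMSO libraries were the lowest of the 12 and the tif1g leflunomide libraries the highest, while tif1g DMSO and control leflunomide overlapped. Means were 6.57 ± 0.151 CPM in tif1g leflunomide, 5.58 ± 0.749 CPM in tif1g DMSO, 5.49 ± 0.629 CPM in control leflunomide and 4.05 ± 0.464 CPM in control DMSO (SD, n = 3 each).

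In DMSO, apln was 1.38-fold higher with the tif1g morpholino, log2 0.46 ± 0.16 (adjusted p = 0.0304, edgeR's quasi-likelihood test). The call was lost without replicate 1 or 3 of control DMSO, without replicate 1 or 3 of tif1g DMSO, and when these groups were fitted alone, with adjusted p-values from 0.0647 to 0.126 (edgeR's quasi-likelihood test). In replicate 2 the difference was log2 0.07, against 0.61 and 0.70 in replicates 1 and 3. In leflunomide the morpholino gave log2 0.26 ± 0.15 (adjusted p = 0.246, edgeR's quasi-likelihood test). Leflunomide in control embryos gave log2 0.44 ± 0.16 and missed the threshold (adjusted p = 0.0529, edgeR's quasi-likelihood test), and it passed with the replicate number as a block (adjusted p = 0.0287, edgeR's quasi-likelihood test; 13.5% of all genes were then called higher). On the RefSeq annotation of another assembly, GRCz12tu, apln overlaps the aminopeptidase gene xpnpep2, and the counting's strand setting is not stated in the sources used here. The xpnpep2 gene itself had 0 to 10 counts per library. The other members overlap no gene on that annotation.

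**Figure D3:**
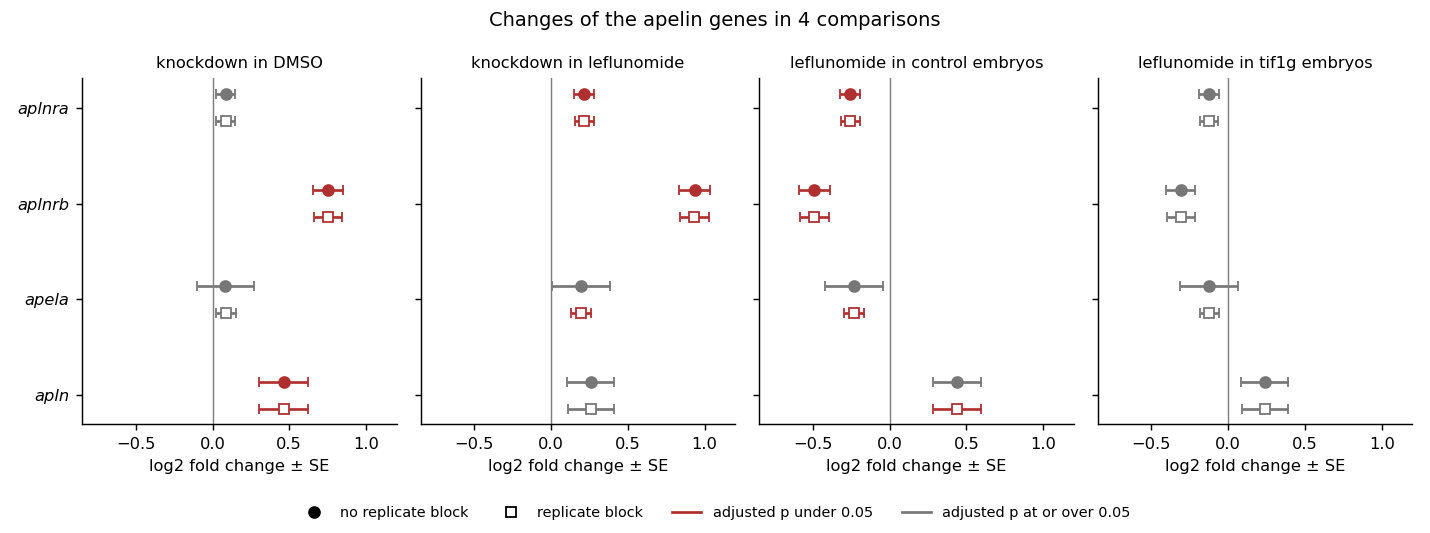
Log2 fold changes with SE of the 4 apelin genes in the comparisons of tif1g with control morpholino (called knockdown on the panels) and of leflunomide with DMSO. Circles are fits without and squares fits with the replicate number as a block, and red marks an adjusted p under 0.05. The rise of aplnrb with the tif1g morpholino is the largest change, at 0.75 and 0.93, and the blocked SE of apela is smaller than the unblocked one; the call of aplnra for leflunomide in control embryos is lost when libraries are scaled by their totals.

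The comparisons of morpholinos and of treatments share libraries, so each is given by its own values. The difference between the morpholino's change in leflunomide and in DMSO was tested as an interaction. Without the replicate block, 0.0% of all genes were called by edgeR's quasi-likelihood test (2560 genes, or 12%, at an unadjusted p under 0.05). DESeq2 called 162 genes, or 0.757%. With the replicate block, edgeR's test called 1067 genes, or 4.99%, and no member among them. Without the block, the interaction of aplnrb was log2 0.18 ± 0.14 with a 95% interval of -0.09 to 0.45 (adjusted p = 0.664, edgeR's quasi-likelihood test). For aplnra it was 0.13 ± 0.09 (adjusted p = 0.627, edgeR's quasi-likelihood test). The ligand genes gave 0.11 ± 0.27 for apela (adjusted p = 0.932, edgeR's quasi-likelihood test) and -0.20 ± 0.22 for apln (adjusted p = 0.791, edgeR's quasi-likelihood test). No difference between these changes was detected for any member, and the interval for aplnrb reaches 0.45 on the log2 scale.

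Genes were ranked by the Pearson correlation of their log2 CPM with each member over the 12 libraries. The ranking took in 14062 other genes with a symbol and a mean log2 CPM of at least 1. These correlations describe shared order over libraries that fall into the same 4 groups and 3 replicate numbers. Most like aplnrb were the cadherin gene cdh6 (r = 0.985) and taf5l, atp6v0c (ENSDARG00000036577), snw1 and glg1 (ENSDARG00000061282), each at r = 0.976. Most like aplnra were the survival gene bcl2l1 (r = 0.974), fbl for fibrillarin (0.963), cyp27c1 (0.960), wtap (0.959) and slc7a6 (0.955). Most like apela were the chloride channel gene ano1 (r = 0.95), the ventral homeobox gene ved (0.945), cart4 (0.933), klf2a (0.931) and the potassium channel gene kcnj13 (0.924). Most like apln were si:dkey-150l7.10 (r = 0.940), arhgap23a (0.937), stxbp5 (ENSDARG00000029234) (0.935), plagx (0.928) and greb1l (0.926). The receptor genes correlated with each other at r = 0.824, which placed aplnrb at rank 595 for aplnra. For apela, aplnra ranked 1432 (r = 0.540) and apln 8451 (r = -0.090).

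Genes around the receptors were described by lists, first those of signal handling. The lists share some genes: foxa2, gata5, gata6, noto and mespba each stand in 2 of them and count in both. Of 12 tested genes for apelin peptidases, inhibitory G protein subunits, arrestins, receptor kinases and relatives, 4 fell with the tif1g morpholino in DMSO, where 17.2% of all genes fell. 2 of the 4 do not handle the signal: tmem88a (log2 -1.02 ± 0.19, adjusted p = 0.000408, edgeR's quasi-likelihood test) and tmem88b (-0.86 ± 0.27, adjusted p = 0.0199) encode membrane proteins that act on Wnt signalling in heart precursors. The others encode G protein subunits, gnai2 (ENSDARG00000017294) at -0.54 ± 0.13 and gnai1 at -0.20 ± 0.07. The call of tmem88b rested on 24 to 70 counts per library. It was lost without replicate 1 of control DMSO or replicate 2 or 3 of tif1g DMSO. Leaving any 1 of the 3 replicate numbers out of all groups also lost it (adjusted p up to 0.12 over these fits, edgeR's quasi-likelihood test). The count of the list that fell was 2 without replicate 1 of control DMSO. With 1 replicate number left out of all groups that count was as low as 1 (without number 2). In leflunomide, none fell without the replicate block (11.8% of all genes fell) and 5 fell with it (16.7% of all genes), while the arrestin gene arrb2 (ENSDARG00000039215) rose by 0.19 ± 0.06 without the block. Its call was lost without replicate 1 of control leflunomide and without replicate 1 or 3 of tif1g leflunomide. The list's median was log2 -0.15 in DMSO and -0.14 in leflunomide, beside 0.0013 and 0.0057 for all genes. In control embryos leflunomide called 0 genes of the list without the block, beside 21.9% of all genes. With the block it called 2 as lower, a share near the 17.8% of all genes called lower.

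The chemokine system that guides cells of the gastrula alongside apelin receptor signalling had 5 tested genes. With the tif1g morpholino 2 rose and 2 fell in leflunomide, beside 12% and 11.8% of all genes. In DMSO 2 fell, beside 17.2% of all genes. One ligand gene, cxcl12, fell with the tif1g morpholino by log2 -0.58 ± 0.07 in leflunomide (adjusted p = 8.54e-06, edgeR's quasi-likelihood test) and -0.38 ± 0.07 in DMSO (adjusted p = 0.00048). A receptor gene, cxcr4 (ENSDARG00000041959), fell by -0.69 ± 0.14 and -0.74 ± 0.14 in these comparisons. Its paralogue cxcr4 (ENSDARG00000057633) rose in leflunomide by 0.26 ± 0.08, as did the scavenger receptor gene ackr3 (ENSDARG00000058179) by 0.33 ± 0.07. The count that rose there was 1 without replicate 1 of control leflunomide or replicate 3 of tif1g leflunomide. The other ligand gene, cxcl12b, did not fall with the morpholino in DMSO, where its estimate was log2 0.17 ± 0.08. For it, edgeR's quasi-likelihood test gave an adjusted p of 0.141 in the main fit and 0.00447 in the blocked fit. It was thus called higher in the blocked fit and not in the main fit. With leflunomide in control embryos, cxcl12 rose by 0.27 ± 0.07 (adjusted p = 0.0103, edgeR's quasi-likelihood test). That call was lost without replicate 1 of either group and without number 1 or 2 in all groups (adjusted p up to 0.223, edgeR's quasi-likelihood test). The cxcr4 gene that had risen with the morpholino fell by -0.35 ± 0.08 (adjusted p = 0.00264), a call lost without number 2 in all groups (adjusted p = 0.0794, edgeR's quasi-likelihood test). In control embryos, 1 gene of the list thus rose and 1 fell with leflunomide, beside 8.87% and 13.1% of all genes. For the morpholino, the list's median was 0.20 in leflunomide and 0.08 in DMSO.

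Nodal ligands, receptors and targets rose with the tif1g morpholino in 9 of 16 genes in leflunomide, where 12% of all genes rose, and in 8 of 16 in DMSO, where 15.6% did, and none fell. The list's median was log2 0.29 and 0.30 in these comparisons. The Nodal ligand gene ndr2 rose by 0.80 ± 0.10 in leflunomide (adjusted p = 1.24e-05, edgeR's quasi-likelihood test) and by 1.07 ± 0.10 in DMSO (adjusted p = 3.54e-07). Its partner ligand gene gdf3 rose by 0.78 ± 0.11 and 0.30 ± 0.11, and the receptor gene acvr1b (ENSDARG00000052142) by 0.26 ± 0.05 and 0.38 ± 0.05. Without replicate 3 in all groups, 4 genes were called in DMSO. Leflunomide in control embryos lowered 4 genes of the list, among them gdf3 at -0.52 ± 0.11, and raised ndr2 by 0.34 ± 0.11. Of all genes, 13.1% fell and 8.87% rose there. The count lowered was 1 without replicate 1 or 2 of control leflunomide, without replicate 3 of control DMSO and with library totals as the scaling. It was 8 with the replicate block, where 17.8% of all genes fell.

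Endoderm genes, which mark cells that move under Toddler early, fell with leflunomide in control embryos in 5 of 7 cases, where 13.1% of all genes fell, with a list median of log2 -0.30 beside 0.02 for all genes. They included sox32, the endoderm determinant, at -1.07 ± 0.26 (adjusted p = 0.0131, edgeR's quasi-likelihood test) and foxa3 at -0.30 ± 0.05 (adjusted p = 0.000538). The others were gata5, gata6 and foxa2, which also stand in a mesoderm list, while sox17 and foxa1 were not called. The count that fell was 3 without replicate 2 of control DMSO or of control leflunomide. It was 1 without replicate 2 in all 4 groups, and 2 with library totals as the scaling. With the tif1g morpholino in leflunomide sox32 rose by 1.25 ± 0.26, gata6 by 0.46 ± 0.10 and foxa2 by 0.31 ± 0.09. The call of foxa2 was lost without replicate 1 or 2 of control leflunomide, without replicate 3 of tif1g leflunomide and without number 1 or 2 in all groups (adjusted p up to 0.13, edgeR's quasi-likelihood test), and that of gata6 without number 2 (adjusted p = 0.053). In DMSO no endoderm gene was called without the replicate block and 3 were called higher with it, as were 19.9% of all genes. In these comparisons the summed level of the list was 350 to 402 CPM in tif1g leflunomide, 401 to 458 CPM in tif1g DMSO, 282 to 326 CPM in control leflunomide and 358 to 423 CPM in control DMSO. Of this sum, gata6 held a mean of 148 CPM and gata5 95.3 CPM in control DMSO, and both stand in the heart list too. The part of endoderm content in the aplnrb values was not tested.

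Of 16 tested genes of heart and lateral plate mesoderm, 4 fell and 2 rose with the tif1g morpholino in leflunomide, and 7 fell in DMSO. Of all genes, 11.8% fell and 12% rose in leflunomide and 17.2% fell in DMSO, so the share of the list that rose was near that of all genes. The heart regulator genes tbx20 (log2 -1.09 ± 0.24 in leflunomide and -1.19 ± 0.26 in DMSO, adjusted p = 0.00291 and 0.0015, edgeR's quasi-likelihood test) and hand2 (-0.59 ± 0.18 and -0.79 ± 0.18) fell in both, as did kdrl, for a vessel growth factor receptor, at -0.91 ± 0.15 and -0.79 ± 0.16. The call of tbx20, on 36 to 209 counts per library, was lost in leflunomide without number 2 in all groups (adjusted p = 0.0571, edgeR's quasi-likelihood test). That of hand2 in DMSO was lost without number 3 (adjusted p = 0.0717, edgeR's quasi-likelihood test). The genes that rose in leflunomide were drl, a lateral plate marker, by 0.68 ± 0.17 and gata6. In DMSO the count was 4 without replicate 1 of control DMSO and 3 without replicate 2 of tif1g DMSO. The list's median was log2 -0.28 in leflunomide and -0.29 in DMSO. With the replicate block 7 fell in leflunomide, as did 16.7% of all genes. In control embryos gata5, gata6 and drl fell with leflunomide, beside 13.1% of all genes. The count was 0 with library totals as the scaling and 0 without replicate 2 of control DMSO. Of these genes, gata5 and gata6 were also counted in the endoderm list.

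Among 14 tested genes of cell movement and adhesion, 5 rose and 1 fell with the tif1g morpholino in leflunomide, where 12% of all genes rose and 11.8% fell. In DMSO 4 rose and 3 fell, beside 15.6% and 17.2% of all genes, and the count that fell was 1 without replicate 2 in all groups and 5 with the replicate block, in which 22.3% of all genes fell. The convergence and extension genes wnt11f2 (log2 0.42 ± 0.07 in leflunomide and 0.49 ± 0.07 in DMSO, adjusted p = 0.000234 and 2.84e-05, edgeR's quasi-likelihood test) and vangl2 (0.18 ± 0.06 and 0.39 ± 0.06) rose in both. The hyaluronan synthase gene has2 rose by 0.44 ± 0.07 and 0.36 ± 0.07. One fibronectin gene, fn1 (ENSDARG00000006526), fell by -0.79 ± 0.09 and -1.01 ± 0.09, while its paralogue fn1 (ENSDARG00000019815) rose in leflunomide by 0.20 ± 0.06. In leflunomide the count that rose was 3 without replicate 1 of tif1g leflunomide or replicate 2 of control leflunomide. In control embryos 5 genes of the list fell with leflunomide, beside 13.1% of all genes. The count was 2 with library totals as the scaling or without replicate 1 in all groups. The small GTPase gene rac1a fell there by -0.36 ± 0.05 (adjusted p = 0.000104, edgeR's quasi-likelihood test).

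**Figure D4:**
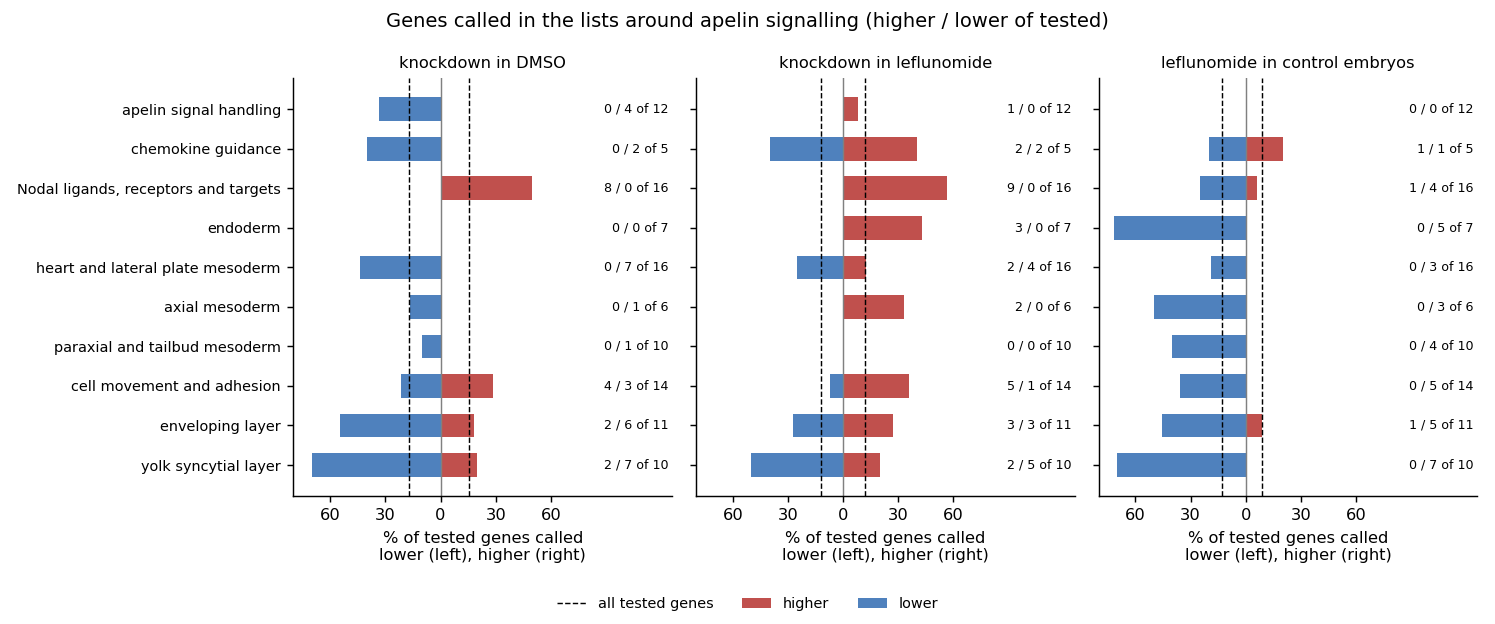
Percent of the tested genes of each list called higher (right) or lower (left) by edgeR's quasi-likelihood test, with the counts beside the bars and dashed lines at the percent of all genes called. Nodal genes were called higher in 8 of 16 cases in DMSO and in 9 of 16 in leflunomide for the tif1g morpholino, and endoderm genes lower in 5 of 7 cases for leflunomide in control embryos, a count that was 2 when libraries were scaled by their totals.

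Other tissue lists were read for what the whole embryo RNA contained. Beside them, the tif1g morpholino called 12% of all genes as higher and 11.8% as lower in leflunomide, and 15.6% and 17.2% in DMSO. Of 6 axial mesoderm genes, 2 (foxa2 and chrd) rose with the morpholino in leflunomide, and neither was called without replicate 1 or 2 of control leflunomide or replicate 3 of tif1g leflunomide. In DMSO 1 axial gene fell, a share near that of all genes; the count was 0 without replicate 1 of control DMSO or replicate 1 or 2 of tif1g DMSO, 2 without replicate 1 or 3 of control leflunomide and 3 with the replicate block. With leflunomide in control embryos 3 axial genes fell, beside 13.1% of all genes. The count was 0 with library totals as the scaling and 0 without replicate 1 or 2 in all groups. Of these genes, noto was also counted in the Nodal list and foxa2 in the endoderm list. Of 10 paraxial and tailbud genes, none was called for the morpholino in leflunomide without the replicate block, and 2 rose and 2 fell with it, beside 17% and 16.7% of all genes. In DMSO 1 fell without the block and 3 with it (22.3% of all genes), and 4 fell with leflunomide in control embryos (1 with library totals, 2 without replicate 2 of control leflunomide). Enveloping layer genes moved both ways with the morpholino: 3 of 11 fell and 3 rose in leflunomide (5 rose with the block), and 6 fell and 2 rose in DMSO. The envoplakin gene evpla fell by log2 -0.73 ± 0.05 in leflunomide and -0.77 ± 0.05 in DMSO, while the claudin gene cldne rose by 0.37 ± 0.05 and 0.44 ± 0.05. The transcription factor gene grhl3 rose by 0.48 ± 0.08 and 0.39 ± 0.08, and the keratin gene krt4 by 0.19 ± 0.05 in leflunomide. Their summed level was 14750 to 14780 CPM in tif1g leflunomide, 14180 to 14890 CPM in tif1g DMSO, 14160 to 14790 CPM in control leflunomide and 16330 to 17590 CPM in control DMSO. The yolk syncytial layer list had 10 tested genes, of which the morpholino lowered 5 and raised 2 in leflunomide and lowered 7 and raised 2 in DMSO. Those that fell included the apolipoprotein gene apobb.1, at log2 -0.48 ± 0.07 and -0.87 ± 0.07. Those that rose were the nuclear receptor gene hnf4a, by 0.85 ± 0.10 and 0.72 ± 0.10, and the transthyretin gene ttr, by 1.64 ± 0.51 and 2.08 ± 0.55 on only 3 to 21 counts per library. The count that rose in leflunomide was 1 without replicate 2 or 3 of either leflunomide group, and hnf4a kept its call there in each fit. With leflunomide in control embryos, where 13.1% of all genes fell, 5 of 11 enveloping layer genes fell (3 with library totals) and 1 rose, and 7 of 10 yolk syncytial layer genes fell (2 with library totals, and 4 without replicate 1 of control leflunomide or 3 without replicate 1 in all groups). The yolk syncytial layer genes summed to 3607 to 3971 CPM in tif1g leflunomide, 3480 to 3958 CPM in tif1g DMSO, 4790 to 5134 CPM in control leflunomide and 5818 to 6544 CPM in control DMSO. No gene of any list was at 0 in all libraries, and the part of these tissues in the values of the apelin genes was not tested. In tif1g embryos leflunomide called 0 genes of any of these lists by edgeR's quasi-likelihood test without the block, beside 0.617% of all genes. With the block it called 2 endoderm, 2 yolk syncytial layer and 2 cell movement genes as lower. It also called 1 gene each of the Nodal, heart and paraxial lists as lower. As higher it called 1 gene each of the cell movement, heart and paraxial lists. Of all genes, 4.39% were then called lower and 2.7% higher. With the block, the interaction called 5 of 10 yolk syncytial layer genes and 4 of 11 enveloping layer genes as higher and 0 as lower. It also called 1 gene each of the Nodal, axial, paraxial and cell movement lists as higher and 1 cell movement gene as lower. In the other lists it called none. Of all genes, 3.37% were called higher there and 1.62% lower. Without the block, edgeR's test called 0 genes of any list for the interaction. DESeq2 called 1 yolk syncytial layer and 2 enveloping layer genes as higher, beside 0.425% of all genes.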

How the data were processed

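Rows were whole-number read counts per Ensembl gene, deposited by the authors. TopHat2 2.0.11, HTSeq, cutadapt, FastQC and Cufflinks 2.2.1 were used with build GRCz11, per the submitters' processing notes. The labels describe directional libraries depleted of ribosomal RNA. The sources used here do not name the annotation release. Symbols came from a gene name table covering 29201 of 32520 identifiers, and 112 of 121 list symbols matched. Gene positions were used only to ask whether a member overlaps another gene, on the RefSeq annotation of assembly GRCz12tu. Transcript lengths and sequences were not used here.

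From the counts, genes were filtered with filterByExpr, scaled with TMM and fitted with 4 group means over 12 libraries (robust quasi-likelihood fit, edgeR 4.0.16, limma 3.58.1, R 4.3.3; biological coefficient of variation 0.113). Standard errors were taken from the F statistic. DESeq2 1.42.0, other scalings, no filter, the groups fitted alone, a replicate block and the leaving out of each library and of each replicate number were alternatives. The fit was tested on simulated counts and recovered 86% of genes changed by log2 1 and 53% of those changed by log2 0.5 in a simulated DMSO comparison of 21047 genes. In it 7 unchanged genes were called. The simulation changed 100 genes at each size, far fewer than were called in the data, and held no effect of the replicate number. Its recovery therefore need not carry over to the data. Between replicates, chi-square per degree of freedom was 7.09 to 15.0. Same-numbered libraries of compared groups deviated together (r = 0.168 to 0.254 over genes for all 12 pairs). The main fit did not pair them, and the replicate block was the alternative that did. P-values from fits without the block ignore this pairing. The series' design text says that clutches were divided between treatments and does not tie replicate numbers to clutches, so p-values measure the spread between these pools.

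The members and the 10 lists were chosen with earlier results of these data known. Named genes were the members, trim33, for each list up to 3 genes with the smallest p in each morpholino comparison and up to 2 called genes in each leflunomide comparison, and the 5 genes most like each member. Named after their values were seen were gnai1, drl, cldne, grhl3, krt4, ttr, and further comparisons of genes that the rule takes in another comparison (cxcr4, gdf3, acvr1b, ndr2, sox32, hand2, vangl2, has2, fn1, gata6 and hnf4a). The test of the replicate number was added after the counts had been seen.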

Additional observations from a re-analysis of the deposited data

How the results depend on the processing

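Of 416 values of the apelin genes under alternative settings, 389 kept their direction and their side of the threshold, 18 lost the call, 6 gained it and 3 turned sign. With library totals as the scaling, aplnra for leflunomide in control embryos stood at log2 -0.12 and lost its call, while apln there stood at 0.57 (adjusted p = 0.0141, edgeR's quasi-likelihood test), and it was also called by DESeq2 (0.44, adjusted p = 0.0439). The replicate block called apela at 0.20 for the morpholino in leflunomide and at -0.23 for leflunomide in control embryos, and apln at 0.44 there, and it changed no other call of a member. For apln with the morpholino in DMSO, fitting the groups alone gave 0.47 and lost the call. Groups fitted alone were filtered and scaled anew, with fewer libraries to estimate the spread. The cause of these shifts was not tested.

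Leaving out 1 library or 1 replicate number gave these ranges. For the morpholino in DMSO, apela ran from -0.061 (without replicate 1 of control DMSO) to 0.21, and apln from 0.34 to 0.66 (lost also without number 1 or 3). For the morpholino in leflunomide, aplnra ran from 0.18 to 0.25 (lost also without any 1 of the 3 numbers). For leflunomide in control embryos, aplnra ran from -0.30 to -0.21 (lost without number 1 or 2), aplnrb from -0.66 to -0.40 and apln from 0.30 to 0.56 (called without replicate 2 of control DMSO). The interaction of apela ran from -0.014 to 0.26, turning sign without replicate 1 of tif1g DMSO (-0.014) or replicate 3 of tif1g leflunomide (-0.0064). Genes called ran from 3006 to 5289 for the morpholino in leflunomide, 2114 to 4641 for leflunomide in control embryos and 0 to 208 for leflunomide in tif1g embryos. In tif1g embryos leflunomide called 66 genes with library totals, 441 with DESeq2, 40 with the groups fitted alone and 1518 with the replicate block, against 132. The interaction called 3 with library totals, 1 without the filter on low counts, 162 with DESeq2 and 1067 with the replicate block. The groups were not fitted alone for the interaction, which uses all of them.

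Of 1596 values of the named list genes 1486 kept call and direction, as did 1880 of 2080 list counts within 1.5 times. Depth limits apln most, at 110 to 207 counts.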
